A study of Mus musculus with 20 samples.

Results

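Of 20 mouse heart libraries, 6 carried abundant transcripts of the atrial myosin light chain Myl7 and 13 carried almost none. The members were defined by Myl7 itself. Libraries with at least 100 CPM of Myl7 (CPM, a gene's count times 1000000 over the library total) are called atrial-positive here, and those under 10 CPM atrial-negative. Myl7 was at 2456 CPM in S11, 1757 in S7, 1659 in S9, 758 in S12, 179 in S10 and 133 in S6, the 6 atrial-positive libraries. It ranged from 0.0746 to 5.27 CPM in the 13 atrial-negative libraries, with a median of 0.357. S6, at 133 CPM, was the nearest library above the upper limit and S3, at 5.27 CPM, the nearest under the lower one. S5 lay between them at 76.8 CPM and belonged to neither set. Because the sets were chosen by a measured transcript, their differences are given below as a description with fold changes and standard errors and without p-values.

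The study compared heart RNA of wild-type (WT) C57BL/6 mice with that of TECRL-/- mice (knockout, KO) of both sexes at 8 weeks. Tecrl encodes a reductase-like protein of the endoplasmic reticulum and is linked to an inherited arrhythmia. The labels name 5 male WT libraries, 5 male KO, 3 female WT and 7 female KO, each from heart tissue, sequenced as poly-A selected RNA with paired-end reads of 150 bases. No label states which chambers a piece of tissue held. The atrial-positive libraries were S7 and S9 (labelled male WT), S10, S11 and S12 (labelled male KO) and S6 (labelled female KO). The atrial-negative libraries were WT1, WT2 and S8 (male WT), TKO5 and TKO6 (male KO), S1 to S3 (female WT), and S4 and TKO1 to TKO4 (female KO). All 6 atrial-positive libraries had names starting with S, so the name series was a covariate beside genotype in the fit of the 2 sets, except where stated.

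Atrial cardiomyocytes pump at low pressure and also work as endocrine cells, storing natriuretic peptides in granules. They use their own light chains of myosin and, in place of much of the phospholamban of ventricular cells, sarcolipin to restrain the calcium pump of the sarcoplasmic reticulum. The right atrium holds the sinoatrial node and makes the growth factor Bmp10.

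Library totals ran from 12540002 to 20038593 counts, and those of the atrial-positive libraries from 13218361 to 15942238. Mitochondrial transcripts took 15.3% to 22.6% of counts in the atrial-positive libraries (median 20.6%) and 19.3% to 30.4% in the atrial-negative ones (median 23.5%). Tecrl, the targeted gene (ENSMUSG00000049537, GRCm38 chromosome 5, 83278145 to 83355195, minus strand), did not separate the genotype labels. It had 57.5 to 109 CPM in libraries labelled WT and 63.2 to 97.0 CPM in those labelled KO, and its KO effect in 19 libraries was 0.09 on the log2 scale (standard error 0.13, edgeR adjusted p = 0.998). A table of whole-gene counts cannot show which part of the gene was removed, so libraries are called by their labels. In S7, S8 and S9, labelled male, 4 Y-linked genes summed to 0 CPM and Xist was at 279 CPM or more, and in S4, S5 and S6, labelled female, the Y-linked sum was 179 to 211 CPM. Among the S libraries the KO label and the Y-linked transcripts therefore coincided and cannot be told apart.

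The contractile proteins of the atrium separated the sets widely. Myl4, the atrial essential light chain, and Mybphl, a myosin-binding protein of the atrial sarcomere, were higher in each of the 6 atrial-positive libraries than in any of the 13 others. Myl4 (ENSMUSG00000061086, chromosome 11, 104550663 to 104595753, plus strand) was at 2976 CPM in S11, 1962 in S7, 2130 in S9, 883 in S12, 235 in S10 and 133 in S6, and from 1.09 to 9.21 CPM, with a median of 3.21, in the atrial-negative libraries. Mybphl (ENSMUSG00000068745, chromosome 3, 108364911 to 108380057, plus strand) was at 269, 178, 145, 84.2, 24.3 and 7.78 CPM in the same order, against 0 to 0.485 CPM and a median of 0.214. S11, S7 and S9 were the highest for both genes and S10 and S6 the lowest, as for Myl7. The log2 fold change between the sets, from edgeR with genotype and name series as covariates, was 8.16 for Myl4 (standard error 0.78) and 8.65 for Mybphl (standard error 0.83). These bulk values do not tell fewer atrial cells from less RNA per atrial cell.

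**Figure D1:**
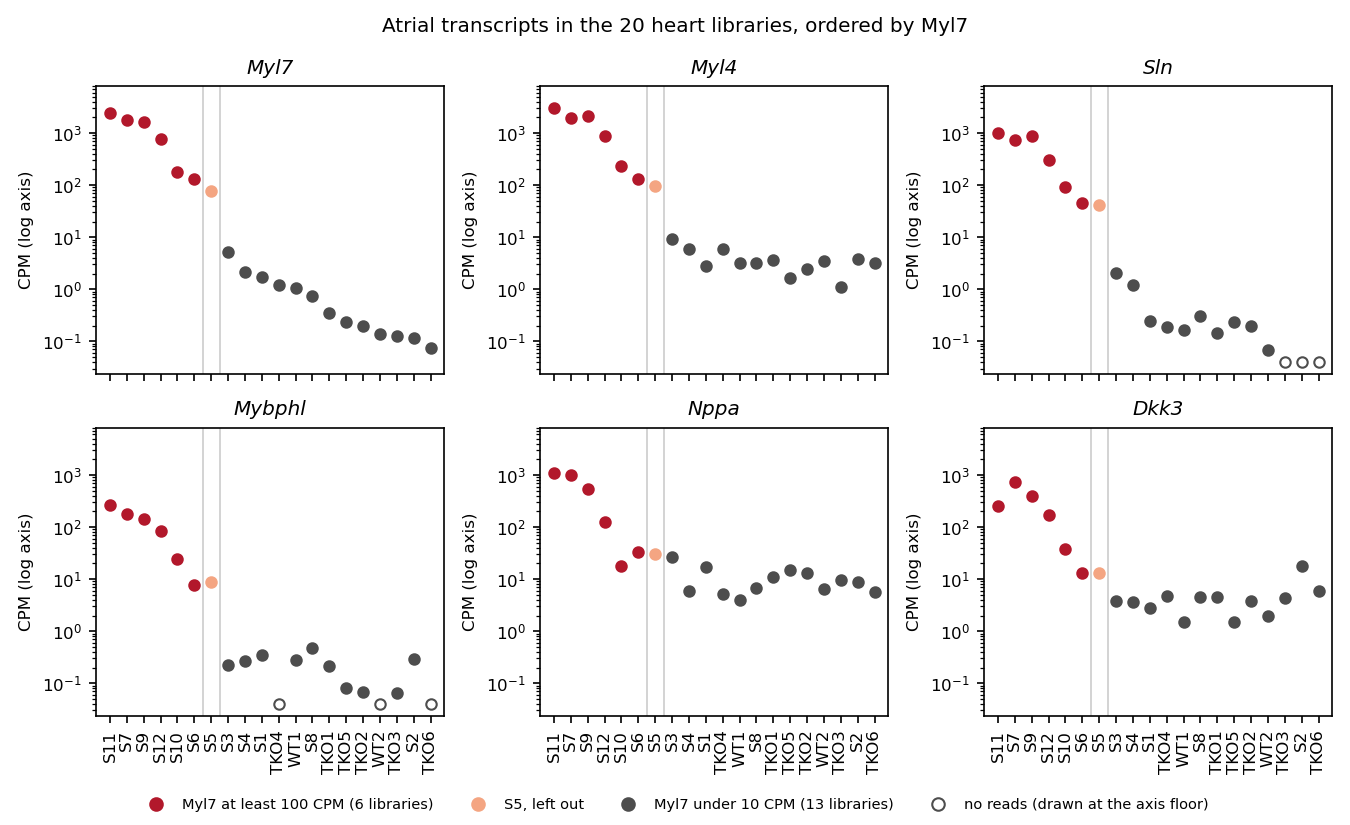
CPM (log axis) of Myl7, which defined the sets, and of Myl4, Sln, Mybphl, Nppa and Dkk3 in each of the 20 libraries, ordered by Myl7; points are single libraries and open points are libraries with no reads. Myl4, Sln and Mybphl dropped to under 10 CPM in all 13 atrial-negative libraries, while Nppa in S10 (18.0 CPM) lay under the highest atrial-negative library (26.6 CPM).

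The promoters of atrial genes are shown so that a gene that kept closer to Myl7 (Mybphl) can be set beside others that did so less (Nppa and Bmp10). Sequences of the 250 bases before the start of 5 genes (Myl7, Myl4, Mybphl, Nppa and Bmp10) were matched by symbol in RefSeq promoters of GRCm38.p6, and 4 of them are printed. Binding motifs of GATA and T-box factors, which act in the heart, were searched on both strands. The GATA motif was AGATAA or TGATAA and the T-box motif was AGGTGT, and capitals below mark every match, with a match on the other strand shown as its reverse complement (ACACCT for the T-box motif). The windows are chr11:5898783-5899032 on the minus strand for Myl7, chr3:108364661-108364910 on the plus strand for Mybphl, chr4:148000472-148000721 on the plus strand for Nppa and chr6:87428744-87428993 on the plus strand for Bmp10.
Myl7: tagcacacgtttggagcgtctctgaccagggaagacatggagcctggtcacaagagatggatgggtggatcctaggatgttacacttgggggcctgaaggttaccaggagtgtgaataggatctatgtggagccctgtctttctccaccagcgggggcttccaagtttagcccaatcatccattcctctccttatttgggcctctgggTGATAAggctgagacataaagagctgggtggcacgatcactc
Mybphl: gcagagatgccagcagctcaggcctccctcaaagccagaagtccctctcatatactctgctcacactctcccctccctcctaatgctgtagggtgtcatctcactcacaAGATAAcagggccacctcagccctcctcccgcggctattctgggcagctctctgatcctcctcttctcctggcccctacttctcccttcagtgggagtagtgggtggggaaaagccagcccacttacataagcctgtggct
Nppa: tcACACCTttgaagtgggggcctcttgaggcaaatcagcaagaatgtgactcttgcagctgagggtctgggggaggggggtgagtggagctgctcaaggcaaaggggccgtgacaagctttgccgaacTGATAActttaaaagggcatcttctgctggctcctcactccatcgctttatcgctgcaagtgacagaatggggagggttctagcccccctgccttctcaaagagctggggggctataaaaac
Bmp10: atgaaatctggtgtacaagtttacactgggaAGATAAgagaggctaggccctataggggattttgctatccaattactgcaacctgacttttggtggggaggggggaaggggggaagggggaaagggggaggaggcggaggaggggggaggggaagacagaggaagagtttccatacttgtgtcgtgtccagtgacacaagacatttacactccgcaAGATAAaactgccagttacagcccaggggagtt
Each of these 4 windows held the GATA motif, which began 42 bases before the start in Myl7, 141 in Mybphl, 122 in Nppa and 219 and 33 in Bmp10. The T-box motif was found in the window of Nppa, 248 bases before the start. Myl4, whose ratio to Myl7 was the steadiest of those given below, had neither motif, and its window is the one not printed. Of 32851 RefSeq promoter windows of this length, 16.6% held the GATA motif and 11.8% the T-box motif. A match of letters is not evidence of binding.

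Sarcolipin moved with the light chains, and its partner genes did not. Sln (ENSMUSG00000042045, chromosome 9, 53850164 to 53854560, plus strand) encodes the small inhibitor of the sarcoplasmic calcium pump that atrial cells use. It was at 1018 CPM in S11, 720 in S7, 863 in S9, 305 in S12, 92.2 in S10 and 46.2 in S6, and at 0 to 2.08 CPM, with a median of 0.188, in the atrial-negative libraries. The log2 fold change was 9.58 (standard error 0.88), and with labelled sex added to the fit it was 8.26. Pln, which encodes phospholamban, the inhibitor of the same pump in ventricular cells, was at 686, 528 and 573 CPM in S11, S7 and S9. These 3 values were under the lowest atrial-negative value of 708 CPM, and the other 3 atrial-positive libraries had 912 to 1024 CPM. Atp2a2, the pump itself, overlapped between the sets, with 6631 to 10974 CPM against 5111 to 13295 CPM.

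The hormones and secreted factors were higher in some atrial-positive libraries. Each of the 8 genes of this list had a positive log2 fold change, 6 of them of at least 1, yet for none did the sets stay apart. Nppa (chromosome 4, 148000722 to 148002079), the atrial natriuretic peptide, was at 1096 CPM in S11, 1010 in S7, 548 in S9, 123 in S12, 18.0 in S10 and 32.7 in S6, against 3.91 to 26.6 CPM (median 8.64). It was above every atrial-negative library in 5 of 6, the exception being S10, and its log2 fold change was 5.30 (standard error 0.91). Nppb, the related B-type peptide that ventricles also make, was at 634, 1479, 1838 and 280 CPM in S11, S7, S9 and S12, above the atrial-negative maximum of 146 CPM. It was at 42.1 CPM in S10 and 118 CPM in S6, inside the atrial-negative range. Pam, an amidating enzyme that is a main membrane protein of atrial granules, was at 2675, 3649, 1906 and 1045 CPM in the same 4 libraries, against at most 692 CPM in the atrial-negative ones. Dkk3, a secreted protein of the Dickkopf family, was at 253, 728, 398, 171, 37.8 and 13.2 CPM in S11, S7, S9, S12, S10 and S6, and at 1.49 to 17.6 CPM in the atrial-negative libraries. S6 was the one library where Dkk3 fell in the atrial-negative range. Corin, the protease that processes the natriuretic peptide precursor, was at 177 to 285 CPM against 126 to 242 CPM, and the vasodilator peptide gene Adm at 16.2 to 84.5 CPM against 7.93 to 29.0 CPM. For each of these, 1 of 6 libraries lay above the atrial-negative range.

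Transcripts of the right atrium did not follow Myl7. Bmp10 (chromosome 6, 87428994 to 87437677), a growth factor of the right atrium, was at 2323 CPM in S7, 1296 in S9 and 191 in S12. In S11, which had the most Myl7 of all libraries, Bmp10 was at 0.0757 CPM, and S10 and S6 had no reads. The atrial-negative libraries had 0 to 0.664 CPM. Hamp, which encodes the iron hormone hepcidin and has a near-identical neighbour gene, was likewise highest in S7 (36.6 CPM), S9 (21.9 CPM) and S12 (9.97 CPM). It was at 3.40 CPM in S11, 2.79 in S10 and 0.188 in S6, and at most 1.40 in the atrial-negative libraries. S11 combined the highest Myl7 with Bmp10 near 0, and S7, S9 and S12 were the libraries with both Myl7 and Bmp10.

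Part of the sinoatrial node list was high in S7 and S12. Of 9 genes, 8 passed the filter on low counts, 6 had a positive log2 fold change, 5 of at least 1, and none separated the sets. Hcn4, the pacemaker channel, was at 18.95 CPM in S7 and 18.2 in S12, against 2.72 to 7.30 CPM in the other atrial-positive libraries and 1.93 to 6.87 CPM in the atrial-negative ones. Cpne5, a calcium-dependent membrane-binding protein, was at 35.7 CPM in S7 and 14.4 in S12, and at 0.125 to 1.50 CPM in the other 4, against at most 1.82 CPM. Shox2, a transcription factor of the node, was at 5.47 CPM in S7, 4.55 in S12, 3.72 in S10, 1.96 in S9, 1.13 in S11 and 0.376 in S6, against 0.332 to 1.63 CPM. Isl1, another node factor, was at 1.95 CPM in S7 and at 0 in all 13 atrial-negative libraries. Vsnl1, a calcium sensor, was not confined to these 2 libraries. It was at 3.97 CPM in S7, 1.01 in S12, 0.880 in S9, 0.605 in S11, 0.215 in S10 and 0.125 in S6. The atrial-negative libraries had 0 to 0.192 CPM (log2 fold change 5.17, standard error 0.92). Tbx3 and Smoc2 were not higher in the atrial-positive libraries, with log2 fold changes of -0.47 (standard error 0.29) and -0.81 (standard error 0.17).

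**Figure D2:**
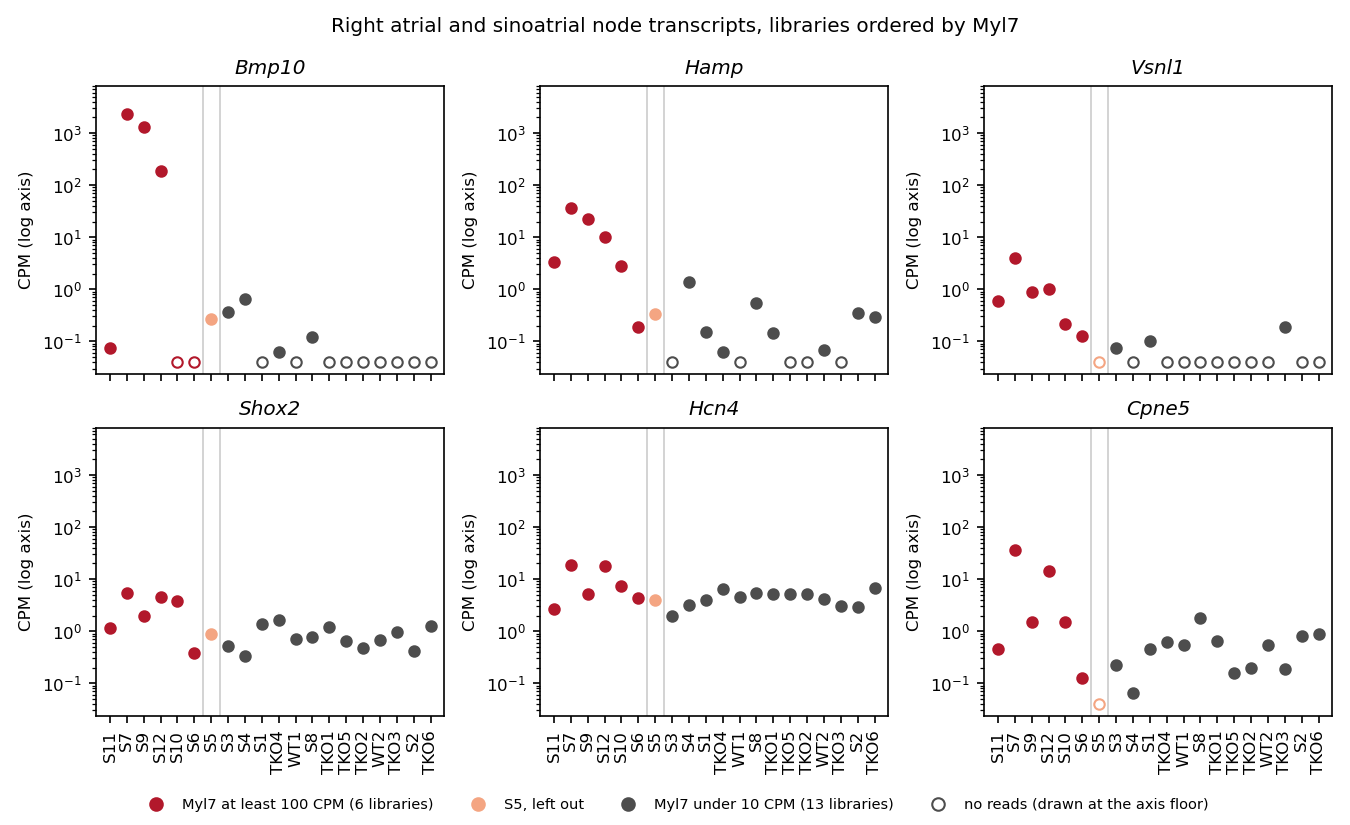
CPM (log axis) of Bmp10 and Hamp (right atrium) and of Vsnl1, Shox2, Hcn4 and Cpne5 (sinoatrial node) in each of the 20 libraries, ordered by Myl7; points are single libraries and open points have no reads. Bmp10 was at 191 CPM or more in S7, S9 and S12 and at 0.0757 CPM in S11, which had the most Myl7.

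Ion channels and transcription factors differed less than the contractile proteins. Of the 8 channel and connexin genes, 6 had a positive log2 fold change, and 3 of these were at least 1. Kcnj3 and Kcnj5 form the potassium channel through which acetylcholine slows atrial cells. Kcnj5 was at 107 CPM in S7, 52.7 in S11, 49.3 in S12, 36.3 in S10, 31.4 in S9 and 23.3 in S6, against 9.64 to 34.9 CPM (log2 fold change 1.73, standard error 0.30). Kcnj3 was at 69.8 CPM in S7, 58.3 in S11 and 45.3 in S12, above the atrial-negative maximum of 36.5 CPM, and at 17.2 to 32.1 CPM in the others (1.50, standard error 0.26). Cacna1h, a T-type calcium channel, was at 39.4 to 101 CPM in S11, S7, S9 and S12, above the atrial-negative maximum of 20.5 CPM (2.01, standard error 0.46). Gja5, the connexin of atrial and conduction cells, was above the atrial-negative maximum of 11.2 CPM in the same 4 libraries. Kcna5, a channel of atrial repolarization in several species, was not higher, with 16.4 to 92.9 CPM against 49.3 to 110 CPM. Among the 5 transcription factors, Tbx5, which is needed for atrial development, had the largest log2 fold change, 1.64 (standard error 0.32). It was at 80.0 CPM in S11, 120 in S7, 79.0 in S9, 55.7 in S12, 38.4 in S10 and 17.5 in S6, against 12.3 to 33.9 CPM, so S6 was the one atrial-positive library in the atrial-negative range. Nr2f1 and Nr2f2, nuclear receptors of atrial identity, had log2 fold changes of 0.88 (standard error 0.32) and 0.11 (standard error 0.21).

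Of the 4 other atrial-enriched genes, 3 separated the sets. Fgf12, which encodes an intracellular partner of sodium channels, was at 72.4 CPM in S11, 55.5 in S7, 30.4 in S9, 13.2 in S12, 4.30 in S10 and 1.51 in S6, against 0.133 to 0.970 CPM (log2 fold change 6.30, standard error 0.83). Stard10, a phospholipid transfer protein, was at 312, 439, 267, 144, 60.1 and 48.9 CPM in the same order, against 17.8 to 44.1 CPM (2.98, standard error 0.38). Clu, which encodes the secreted chaperone clusterin, was at 550 to 2412 CPM against 280 to 535 CPM (1.58, standard error 0.27). For Stard10 and Clu, S6 lay just above the highest atrial-negative library. The kinase gene Sbk2 was at 13.2 to 35.4 CPM in S11, S7, S9 and S12 and at 3.07 to 6.09 CPM in S10 and S6, against 2.76 to 8.21 CPM.

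Over all 5 atrial lists without Myl7 (27 genes, all tested), 24 had a positive log2 fold change, 16 of at least 1, and the median was 1.64. Over all 15168 genes tested, the median was -0.02, 732 had a log2 fold change of at least 1 and 282 of at most -1. A gene was counted as separating the sets when its log2 fold change was at least 1 and no atrial-positive library fell in the atrial-negative range. This held for 28 of 15168 genes, or 0.185%, Myl7 included, and for 5 of the 27 atrial list genes, namely Myl4, Mybphl, Fgf12, Stard10 and Clu. The count rested on the 2 libraries with the least Myl7, since it was 75 without S10 and 72 without S6. It was 66 in the S libraries alone. With fewer libraries the condition of no overlap is easier to meet.

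Apart from Myl7, 27 genes separated the sets, and 19 of them had the same 4 highest libraries as Myl7 (S11, S7, S9 and S12). Sln and the 5 atrial list genes above are 6 of the 27, Adipoq is a gene of the adipocyte list, and 20 were in no list. The 15 coding genes with the largest fold changes at a mean of at least 2 CPM in the atrial-positive libraries are named by rule, and those from Stra6 onwards below were named after their values were seen. Tmem163, a zinc transporter, was at 36.8 CPM in S11, 63.0 in S7, 24.04 in S9, 9.32 in S12, 0.931 in S10 and 0.690 in S6, against at most 0.353 CPM (log2 fold change 7.59, standard error 1.01). Mlana, a melanosome protein, was at 16.0, 21.0, 19.98, 4.91, 0.430 and 0.439 CPM in the same order, against at most 0.235 CPM (6.70, standard error 0.95). The genes of the melanocyte list, which does not hold Mlana, were mixed. Tyrp1 was at 0.749 CPM in S7 and 0.939 in S12, above the atrial-negative maximum of 0.235 CPM, and at 0 to 0.215 CPM in the other 4. Dct was at 5.35 to 12.04 CPM against 2.92 to 10.5 CPM, and Pmel at 0.530 to 1.95 CPM against 0.250 to 2.01 CPM. Rxfp1, the receptor of the hormone relaxin, was at 11.05, 13.6, 8.60, 5.35, 2.29 and 0.376 CPM, against at most 0.266 CPM (5.88, standard error 0.79). C530008M17Rik was at 1.19 to 59.5 CPM against 0.668 to 1.12 CPM (4.97, standard error 0.64). Lrp8, a receptor for apolipoprotein E and reelin, was at 1.69 to 21.0 CPM against 0.320 to 1.50 CPM (3.78, standard error 0.56). Ankrd2, a stretch-responsive muscle protein, was at 0.974 to 9.01 CPM against 0.143 to 0.896 CPM (3.10, standard error 0.56), and at a log2 fold change of 2.11 without S9.

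Heat shock and fat genes among those named by rule were high in 1 or 2 libraries. Hspa1a and Hspa1b encode the inducible heat shock protein Hsp70 from near-identical copies, so reads may have been split between them. Hspa1b was at 230 CPM in S9 and 180 in S11, and at 14.5 CPM in S7, 11.8 in S6, 7.37 in S12 and 6.66 in S10, against 1.06 to 3.21 CPM. Hspa1a was at 165 CPM in S9 and 126 in S11, and at 3.87 to 16.0 CPM in the other 4, against 0.823 to 3.78 CPM. Adipoq and Retn, the fat hormones adiponectin and resistin, were at 124 and 82.8 CPM in S7. In the other 5 atrial-positive libraries Adipoq was at 1.07 to 3.11 CPM and Retn at 0.931 to 1.76 CPM, against at most 0.849 and 0.667 CPM in the atrial-negative ones. Their log2 fold changes of 5.83 and 6.14 were 2.06 and 2.05 without S7.

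The remaining 11 genes of no list had log2 fold changes from 1.21 to 2.69. The largest was that of Stra6, a receptor for the retinol-binding protein, at 3.97 CPM in S7 and 0.627 to 1.30 CPM in the other atrial-positive libraries, against at most 0.424 CPM (1.80 without S7). Anxa8, an annexin, had 2.62, Cacna2d3, an auxiliary subunit of calcium channels, 2.47 and Tubb3, a tubulin of neurons, 2.33. Timp1, an inhibitor of matrix metalloproteinases, was at 7.88 to 32.9 CPM against 2.15 to 6.79 CPM (2.07, standard error 0.37). Srpx (2.07), Rab15 (1.74), the complement gene C4b (1.39), the transcription factor Osr1 (1.35), the mitochondrial aldehyde dehydrogenase Aldh1b1 (1.31) and Igfbp6, a binding protein of insulin-like growth factors (1.21), completed the group. C4b was at 2.01 without the name series in the fit and at 0.92 with labelled sex added, and Osr1 was at 0.78 with labelled sex added.

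**Figure D3:**
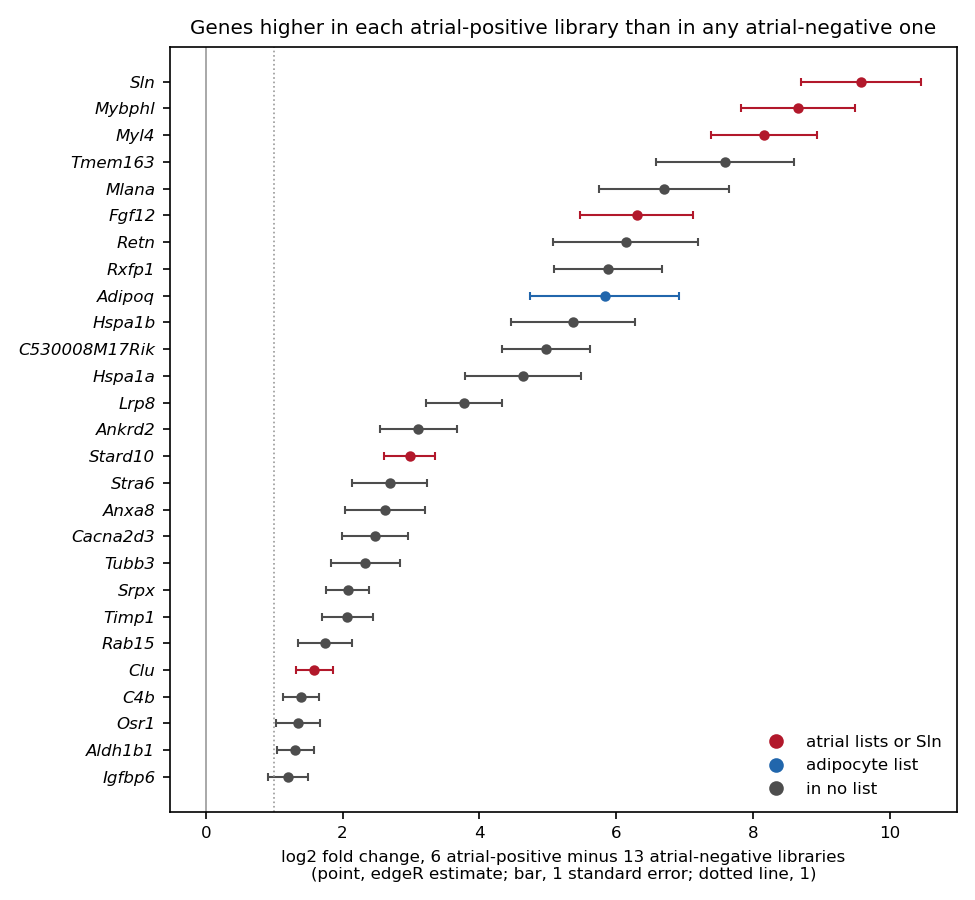
Log2 fold change between the 6 atrial-positive and 13 atrial-negative libraries for the 27 genes other than Myl7 that separated the sets; points are edgeR estimates and bars 1 standard error. Sln (9.58), Mybphl (8.65) and Myl4 (8.16) had the largest values and Igfbp6 (1.21) the smallest.

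Few genes were lower in the atrial-positive libraries. With a log2 fold change of at most -1 and no overlap there was 1 gene (0.00659% of 15168), Gm16170, an antisense transcript whose exons overlap Trim7. It was at 0.815 to 2.22 CPM against 2.31 to 9.32 CPM (-1.80, standard error 0.37), and since the library kit did not mark strand, its reads cannot be told from those of Trim7. Without 1 library this count was 1 to 4, with 4 without S7 and 4 without S6, and it was 5 in the S libraries alone. At any fold, 3 genes (0.0198%) did not overlap, the others being Ubr2, a ubiquitin ligase, at 101 to 147 CPM against 156 to 256 CPM (-0.89, standard error 0.17), and the noncoding 4930429F24Rik (-0.50, standard error 0.13).

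Levels relative to Myl7 separated genes that kept a steady ratio from genes that did not. For this comparison the deposited FPKM values were used (fragments scaled by exon length and by library depth). They set levels of different genes side by side only as far as the deposited exon lengths hold. These lengths were 590 bases for Myl7 and 4637 for Myl4, and by CPM Myl4 was above Myl7 in S11 (2976 against 2456). The spread of a ratio over libraries does not depend on the lengths. In the 6 atrial-positive libraries the ratio of Myl4 to Myl7 was 0.127 to 0.167, so the highest ratio was 1.32 times the lowest, while Myl7 itself differed from 226 to 4162 FPKM. The ratio of Sln to Myl7 was 0.155 to 0.233, a spread of 1.50 times. The spread was 2.33 times for Mybphl, 2.80 times for Fgf12, 2.89 times for Stard10 and 4.17 times for Dkk3. It was 5.69 times for Nppa, from 0.0689 in S10 to 0.392 in S7, and 6.93 times for Tmem163. Bmp10 had no steady ratio, with 0.174 in S7, 0.103 in S9, 0.0330 in S12 and 4.05e-06 in S11. No level found in the atrial-negative libraries was subtracted. Stard10 was at 48.9 CPM in S6, against 17.8 to 44.1 CPM in those libraries. Nppa was at 18.0 CPM in S10 against up to 26.6 CPM, and Dkk3 at 13.2 CPM in S6 against up to 17.6 CPM. For these genes the spread was not separated from that level. The 6 points share the Myl7 value that chose them, so these ratios are a description.

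**Figure D4:**
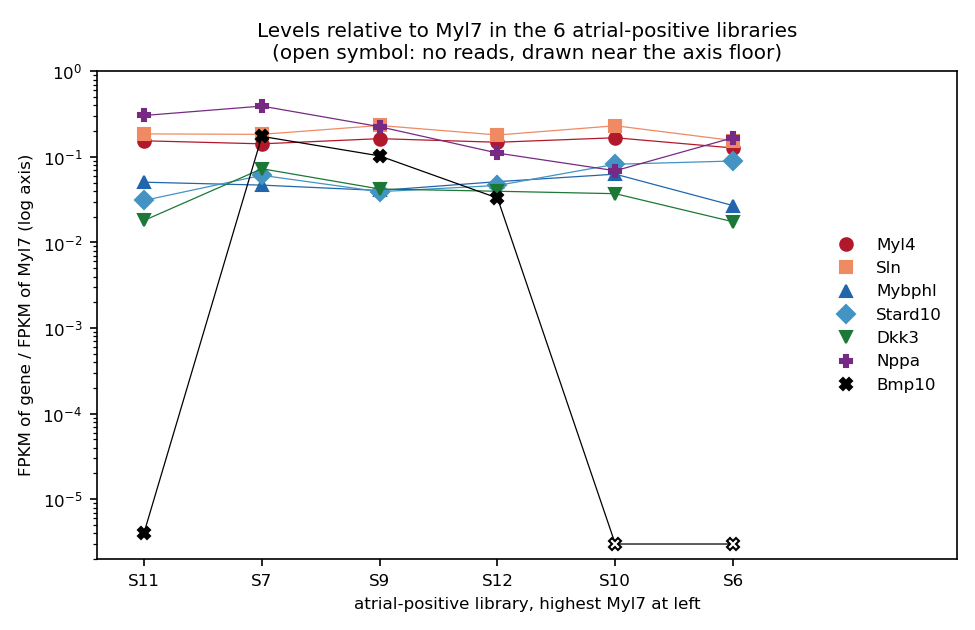
FPKM of 7 genes divided by FPKM of Myl7 (log axis) in the 6 atrial-positive libraries, highest Myl7 at left; each symbol is 1 library, lines join the same gene and open symbols have no reads. Myl4 (0.127 to 0.167) and Sln (0.155 to 0.233) stayed nearly level, and Bmp10 ran from 0 to 0.174.

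Several ventricular transcripts were lower in the libraries with the most Myl7. Of the 9 ventricular genes, 8 had a negative log2 fold change, from -0.74 to -0.03, and none separated the sets. Over all 15168 genes tested, 47.6% had a positive log2 fold change. The genes named below had the lowest log2 fold changes of the list. Its transcription factors ran from -0.16 to 0.29. Myl2, the ventricular regulatory light chain, was at 3199 CPM in S7 and 5697 in S11, under the lowest atrial-negative library (6160 CPM). It was at 6423 CPM in S9, 8212 in S12, 7784 in S10 and 7743 in S6, against an atrial-negative median of 7655 CPM and maximum of 9838 CPM. Myl3, the ventricular essential light chain, was at 2699, 3859 and 4682 CPM in S7, S11 and S9, under the atrial-negative minimum of 5287 CPM. Kcnip2, a subunit of the transient outward potassium channel, was at 29.0 CPM in S7, 49.9 in S12, 74.1 in S11 and 82.7 in S9, under the atrial-negative minimum of 89.7 CPM. Kcnj2, the inward rectifier of ventricular cells, was under the atrial-negative minimum of 32.3 CPM in 5 of 6 libraries, at 20.2 to 31.8 CPM, with S10 at 38.7 CPM. On the FPKM scale Myl7 was 1.82 times Myl2 in S7, 1.42 times in S11, 0.854 times in S9, 0.305 times in S12, 0.0758 times in S10 and 0.0569 times in S6. The deposited exon lengths behind these ratios were 590 bases for Myl7 and 1950 for Myl2. By CPM Myl7 was under Myl2 in S7 (1757 against 3199) and in S11 (2456 against 5697). Genes of all cardiomyocytes summed to 40540 to 47532 CPM in the atrial-positive and 36946 to 53341 CPM in the atrial-negative libraries, with a list median of -0.11 on the log2 scale.

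Transcripts of other cell types went with some of the atrial-positive libraries, and their part in the differences above was not tested. Markers of the mesothelium, which covers the heart, summed to 457 CPM in S7, 155 in S11 and 83.5 in S9, above the atrial-negative maximum of 61.0 CPM, but to 10.6 to 20.6 CPM in S12, S10 and S6. Of the 8 mesothelial genes, 7 had a log2 fold change of at least 1. Upk3b was at 220 CPM in S7, 42.2 in S11 and 26.5 in S9, against at most 6.72 CPM. Adipocyte markers summed to 960 CPM in S7 and 11.7 to 43.7 CPM in the other 5, against 0.299 to 18.1 CPM. In S7 Cfd, the fat-cell protease adipsin, was at 531 CPM, Cidec, a lipid droplet protein, at 200.2 CPM and Lep at 0. The 3 B cell markers summed to 15.5 CPM in S7 and to at most 2.06 CPM in every atrial-negative library. Sox10, a transcription factor of Schwann cells, was at 3.97 CPM in S12, 3.25 in S9, 2.95 in S11 and 1.65 in S10, above the atrial-negative maximum of 1.58 CPM, and at 1.50 CPM in S7 and 1.57 in S6.

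Connective and vascular genes were mixed. Cartilage and valve markers summed to 29.1 to 46.4 CPM in S11, S7, S9 and S12 and to 3.79 and 6.84 CPM in S10 and S6, against 2.70 to 13.3 CPM. Fmod, the collagen-binding fibromodulin, was at 16.2 to 23.6 CPM in the first 4 libraries, against at most 6.70 CPM. Npr3, the clearance receptor of natriuretic peptides and a gene of the endocardium, was at 213 CPM in S11, 200.1 in S7 and 196 in S9, and at 16.5 to 55.4 CPM in the other 3, against at most 66.7 CPM. Plvap, a protein of fenestrated endothelium, was at 28.4 to 133 CPM in S11, S7, S9 and S12, against at most 18.8 CPM. Cnn1, a smooth muscle calponin, was above the atrial-negative maximum of 8.54 CPM in 5 of 6 libraries, S10 being the exception. Other genes of the same lists were not higher, with log2 fold changes of -0.57 for Cdh5 and -0.49 for Kdr of the endothelium, -0.12 for Myh11 of smooth muscle and -0.72 for Col3a1 of fibroblasts (standard errors 0.18, 0.28, 0.19 and 0.43). Fibroblast, macrophage, red blood cell and liver sums overlapped between the sets, and S7 had the lowest red blood cell sum of all, 28.8 CPM. The sums of 3 further lists overlapped too: smooth muscle (151 to 407 against 192 to 365 CPM), endothelium (742 to 1321 against 644 to 1242 CPM) and autonomic neurons (13.6 to 32.5 against 13.5 to 29.1 CPM). Lymphatic markers summed to 83.4 to 255 CPM against 65.4 to 130 CPM, with S11, S7 and S9 the highest. Skeletal muscle markers, nearly all Acta1, summed to 108 to 1043 CPM against 74.3 to 504 CPM, with S6 the highest. T cell and thymus markers summed to at most 2.70 CPM and lung markers to at most 1.80 CPM in the atrial-positive libraries.

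**Figure D5:**
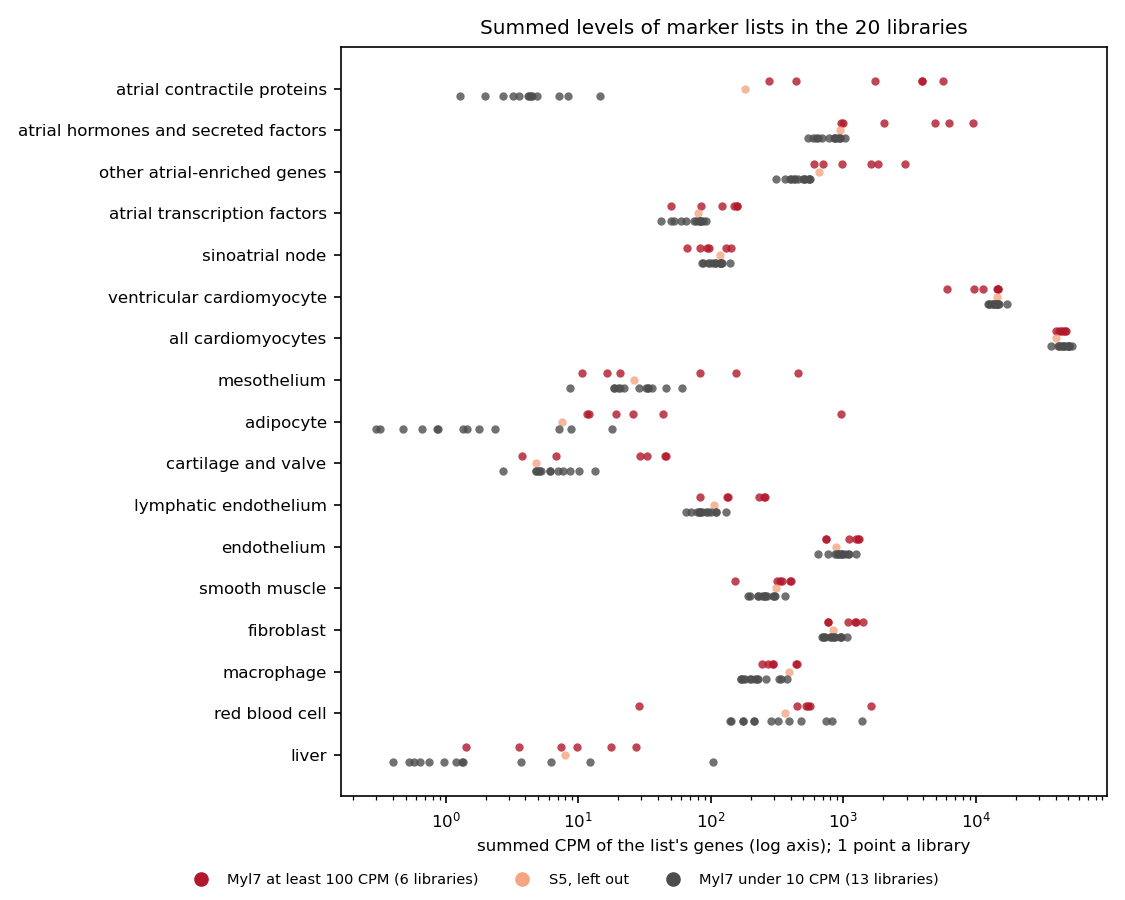
Summed CPM (log axis) of 17 marker lists in the 20 libraries; each point is 1 library, red for atrial-positive, orange for S5 and grey for atrial-negative. The contractile list, which includes the Myl7 that defined the sets, ran from 274 to 5701 against 1.28 to 14.7 CPM, and the mesothelial and adipocyte sums of S7 (457 and 960 CPM) stood above all others.

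S5, labelled female KO, was near the lowest atrial-positive libraries for some genes that separated the sets and inside the atrial-negative range for others. Myl4 was at 95.8 CPM, Sln at 41.7, Mybphl at 8.73 and Fgf12 at 2.59, each above the highest atrial-negative library. Its ratio of Myl4 to Myl7 (0.159 on the FPKM scale) lay inside the range of the 6 atrial-positive libraries, while those of Sln (0.243), Fgf12 (0.00321) and Stard10 (0.0968) lay above it. Stard10 itself was at 30.5 CPM in S5, inside the atrial-negative range. Of the 27 genes that separated the sets, S5 was at or above the lowest atrial-positive library for 12, between the sets for 2 and inside the atrial-negative range for 13. Bmp10 was at 0.273 CPM there.

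The genotype label was not used by the split, so KO could be compared with WT with edgeR's quasi-likelihood test and Benjamini-Hochberg adjustment. In the 19 libraries, with atrial status and name series in the fit, 0 of 15168 genes (0%) had an adjusted p under 0.05, 786 had an unadjusted p under 0.05 and DESeq2 called 6. The 28 genes of the atrial lists and Sln, Myl7 left out, had a lowest adjusted p of 0.929, and 6 had an unadjusted p under 0.05. The log2 difference KO minus WT was -0.40 for Myl4 (standard error 0.49, edgeR adjusted p = 0.995) and -0.65 for Sln (standard error 0.65, edgeR adjusted p = 0.988). Among the 13 atrial-negative libraries 0 of 14669 genes (0%) passed, 419 had an unadjusted p under 0.05 and DESeq2 called 1. Without 1 library these counts were 0 to 2 in the 19 libraries, reaching 2 without WT2, and 0 to 1 in the atrial-negative ones, reaching 1 without S2. The 786 genes became 490 without the atrial term and 513 without S7, and the 419 became 1646 without the series term.

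Within the 6 atrial-positive libraries, 2 labelled WT (S7 and S9) and 4 labelled KO, 4 of 14064 genes (0.0284%) passed. They were the Y-linked Ddx3y (adjusted p = 6.2e-05), Eif2s3y (adjusted p = 0.000313), Kdm5d and Uty (adjusted p = 0.000595 for both), which had no reads in S7 and S9. Ddx3y was at 81.4 to 87.7 CPM in the 4 libraries labelled KO. An unadjusted p under 0.05 was reached by 1177 genes, which became 436 without S7, 643 without S10 and 2927 without S9. DESeq2 called 119 genes, and without S9, which leaves S7 as the lone WT library and assumes that it varies like the others, 280 passed. None of the 27 atrial genes tested passed, with a lowest adjusted p of 0.488. Their log2 fold changes of KO over WT were negative for 24 of 27, against 49.3% of all genes tested. Their median was -0.95, against 0.01 for all genes tested. Nppb had -2.54 (standard error 0.78, adjusted p = 0.520), Hamp -2.76 (standard error 0.81, adjusted p = 0.520) and Myl4 -0.87 (standard error 0.97, adjusted p = 0.795). S7 and S9 were among the 3 libraries with the most Myl7, and S10 and S6, the 2 with the least, were both labelled KO.

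Of the 10 libraries labelled male, 5 were atrial-positive, so KO was also compared with WT there without and with atrial status. This was not a comparison within 1 sex by transcripts. S7, S8 and S9, labelled WT, had Xist and no Y-linked reads, while each library labelled male KO had Y-linked reads. The KO label and sex-linked transcripts were thus partly confounded. With name series as the covariate, 0 of 14481 genes (0%) had an adjusted p under 0.05 (edgeR) and 688 an unadjusted p under 0.05, and no other tool was run on this subset. Myl4 had a log2 fold change of KO over WT of -0.11 with a standard error of 1.04. With atrial status added, a fit chosen after seeing the data, 0 genes passed, 789 had an unadjusted p under 0.05, and Myl4 was at -0.50 with a standard error of 0.56. The standard error of Sln went from 1.27 to 0.65 and that of Mybphl from 1.11 to 0.67. Over the 27 atrial genes the median standard error was 0.40 without and 0.36 with atrial status, while over all genes it was 0.19 in both fits.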

How the data were processed

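Heart RNA of 20 mouse libraries was analysed from 1 deposited table of read counts and FPKM for 29339 genes. Per the labels, mRNA was selected with poly-T beads and libraries were made with a kit that does not mark strand. The submitters' processing notes list HISAT2, HTSeq 0.6.1p2, DESeq2 1.26.0 and the build GRCm38, and settings of the alignment and counting are not given in the sources used here. The raw counts per gene were deposited by the authors, and FPKM was calculated by the authors from the exon length of each gene. Of the gene IDs, 29328 were found in GENCODE M21, and 28730 deposited lengths were within 1% of its exon lengths.

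CPM was computed as count times 1000000 over the library total. Fold changes came from edgeR 4.0.16 (R 4.3.3, TMM normalization, quasi-likelihood) over the 15168 genes that reached 10 counts in 3 or more libraries, with name series, genotype label and atrial status as terms. KO was compared with WT by the same test, with Benjamini-Hochberg adjustment and a threshold of 0.05. The fit of the 6 atrial-positive libraries had genotype label as its only term. DESeq2 1.42.0, other filters, scaling, covariates and leaving out each library in turn were alternatives, and the code was tested on simulated counts. S5 was in no fit of the 2 sets. The members and gene lists were chosen with earlier results of these data known. Named genes were those of 26 fixed lists, and the 15 highest and up to 10 lowest coding genes without overlap between the sets and with a mean of at least 2 CPM in the higher set. That rule gave 1 lower gene.

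No 2 libraries held identical values, and all 44 pairs within labelled groups differed by more than sampling noise. The study's methods describe 1 heart per mouse. A single count is under 0.1 CPM at these depths. Exons of Tmem163, Pln, Myl2, Myl3, Cacna1h, Gja5, Shox2, Srpx and Pmel overlap those of other coding genes (Mgat5, Cep85l, Ccdc63, Pth1r, Tpsg1, Gpr89, Rsrc1, Rpgr, and Cdk2 with Dgka), and exons of several others, Myl4, Mybphl and Nppa among them, overlap those of predicted genes (Gm22000, Gm12522 and Gm13054), so their counts are less certain. Some list genes are not reported here.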

Additional observations from a re-analysis of the deposited data

Results flagged for a closer look

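Retn, Adipoq and Stra6 had 1 atrial-positive library far from the other 5, by Dixon's test of the gap over the range. All were highest in S7. Retn was at 82.8 CPM there and next at 1.76 CPM, Adipoq at 124 CPM and next at 3.11 CPM, and Stra6 at 3.97 CPM and next at 1.30 CPM. With 30 genes tested and a 5% limit, chance alone flags about 1 in 20.

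S5, which entered no comparison of the sets, carried atrial transcripts above the highest atrial-negative library. Myl7 was at 76.8 CPM against 5.27, Myl4 at 95.8 against 9.21, Sln at 41.7 against 2.08, Mybphl at 8.73 against 0.485 and Fgf12 at 2.59 against 0.970.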

How the results depend on the processing

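The count of 28 genes higher in the atrial-positive libraries ran from 28 to 75 without 1 library (75 without S10, 72 without S6) and was 66 in the S libraries alone. The 1 lower gene became 1 to 4 without 1 library and 5 in the S libraries alone. Over 26 settings, 21 of the 28 genes were called each time, the exceptions being Aldh1b1, C4b, Igfbp6, Mlana, Osr1, Rxfp1 and Stra6. Overlap was judged on CPM, which no tool, scaling or covariate of the fits changes, and leaving out libraries cannot create overlap. Only the fold change limit or the count filter could therefore drop a gene, so this stability was largely set in advance. With labelled sex added 26 of the 28 genes were called, without S7 26, and with a filter of 10 counts in 6 libraries 25. Of 828 fold changes of 32 named genes under these settings, 0 reversed and 13 moved by more than the spread, and the median of all genes stayed within 0.04 of 0 on the log2 scale.

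KO against WT in 19 libraries gave 6 genes with DESeq2, 16 with no filter on low counts, 5 in the S libraries alone and 0 to 2 without 1 library. In the atrial-positive libraries it gave 119 with DESeq2, 270 with no filter and 4 to 280 without 1 library (280 without S9), so this count depends on the tool, the filter and that library. In the atrial-negative libraries it gave 1 with DESeq2, 14 with no filter and 0 to 1 without 1 library. For these counts the cause was not tested. The other alternatives left each count of adjusted calls within 1.5 times. No paired analysis was possible because the labels give no replicate numbers that tie libraries of different groups.

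The sets were defined by a transcript, 6 against 13, so levels of genes that go with Myl7 differ by construction. All atrial-positive libraries came from 1 name series, in which KO label and Y-linked transcripts coincide. Bulk counts do not place a transcript in a cell.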
